A study of Homo sapiens with 6 samples.

Results

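The 49 genes described here encode cytokines, chemokines, growth factors, proteases and protease inhibitors of the senescence-associated secretory phenotype (SASP), out of 19663 protein-coding genes. They were taken by name, and an accessible region was assigned to a gene as a promoter region when any part of it lay within 2 kb of the start of 1 of its protein-coding transcripts, or as a distal region when it lay outside every promoter window and the nearest protein-coding start site, within 100 kb, was that of the gene. Under this rule 144 of the 108542 accessible regions belonged to the SASP genes, 42 as promoter regions and 102 as distal regions. The regions came from ATAC-seq, in which a transposase cuts and tags DNA that is not wrapped tightly in chromatin, of EndoC-βH3 cells. This human beta cell line was derived from fetal pancreas and carries immortalising hTERT and SV40 Large T-antigen transgenes that its CreER recombinase can remove. Of the 6 libraries, each made from 100000 cells, 3 were from untreated, non-senescent cells and 3 from cells made senescent by 4-hydroxy tamoxifen for 3 weeks. Both groups carried the genotype label WT and came from 1 cell line, and the labels do not say whether replicates were separate cultures.

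Senescent cells of many tissues stop dividing and secrete a mixture of inflammatory cytokines, chemokines that draw leukocytes, growth factors and enzymes that digest the extracellular matrix. In the cell types where the SASP was first described, its inflammatory part is driven largely by the transcription factors NF-kB and C/EBPβ, with AP-1 acting at many enhancers. Interleukin-1 alpha acts upstream in that network, and IL-6 and IL-8 (the product of CXCL8) are among its best known products.

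The values below are the mean signal of the authors, the average over all 6 libraries of normalised read counts in a region. No value per library was used, so no spread between replicates, no depth per library and no test of senescent against non-senescent cells can be given, and a region open in 1 group only cannot be told apart from a region weakly open in both. Genes are compared on mean signal per kb of region, and where 2 genes lie close in that order it is not known whether they differ beyond the spread of libraries. The promoter region of highest mean signal stands for a gene, and percentiles are among the 15493 genes with a promoter region (for distal regions, among all 88448 distal regions).

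The labelled cell type was checked against marker genes. All 12 beta cell markers had a promoter region, at a median percentile of 86.0, with UCN3 (31.4), SLC30A8 (39.2) and ABCC8 (43.1) below the median of all genes and PDX1 (94.5) and NEUROD1 (95.5) well above it. Among markers of other cells, 5 of 5 alpha and delta cell genes had a promoter region at a median percentile of 11.1, 3 of 5 exocrine genes at 53.6 (CPA1 81.4, KRT19 53.6), 3 of 6 leukocyte genes at 32.8 and 2 of 6 endothelial and stromal genes at 7.86. PTPRC and CD3E, which define leukocytes, had no promoter region.

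A smaller share of the SASP genes than of all genes was open at the promoter, and the open promoters had low signal. A promoter region was found for 31 of 49 genes, 63.3% (95% Wilson interval 49.3 to 75.3%, counting error only), against a background of 78.8% of all protein-coding genes. At or above the median signal per kb stood 5 of the 31 genes, against a background of 50.0%, and 20 of the 31 fell in the lowest 25% of all genes. The median was 297.0 per kb, against 685.6 per kb over all genes. A distal region was found for 35 of 49 genes, 71.4%, against a background of 67.2%. Neither kind of region was found for 10 genes, 20.4%, against a background of 10.0%. Of the rest, 8 genes had distal regions only (IL18, CSF2, TNFRSF1A, HGF, FGF7, ANGPTL4, MMP10 and SERPINB2) and 4 had a promoter region only (IL11, CXCL16, ICAM1 and PLAT). No test was made of these shares, which describe the lists. The interval treats the genes as independent, although some are neighbours on a chromosome, such as IL1A and IL1B or MMP1, MMP3 and MMP10.

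**Figure D1:**
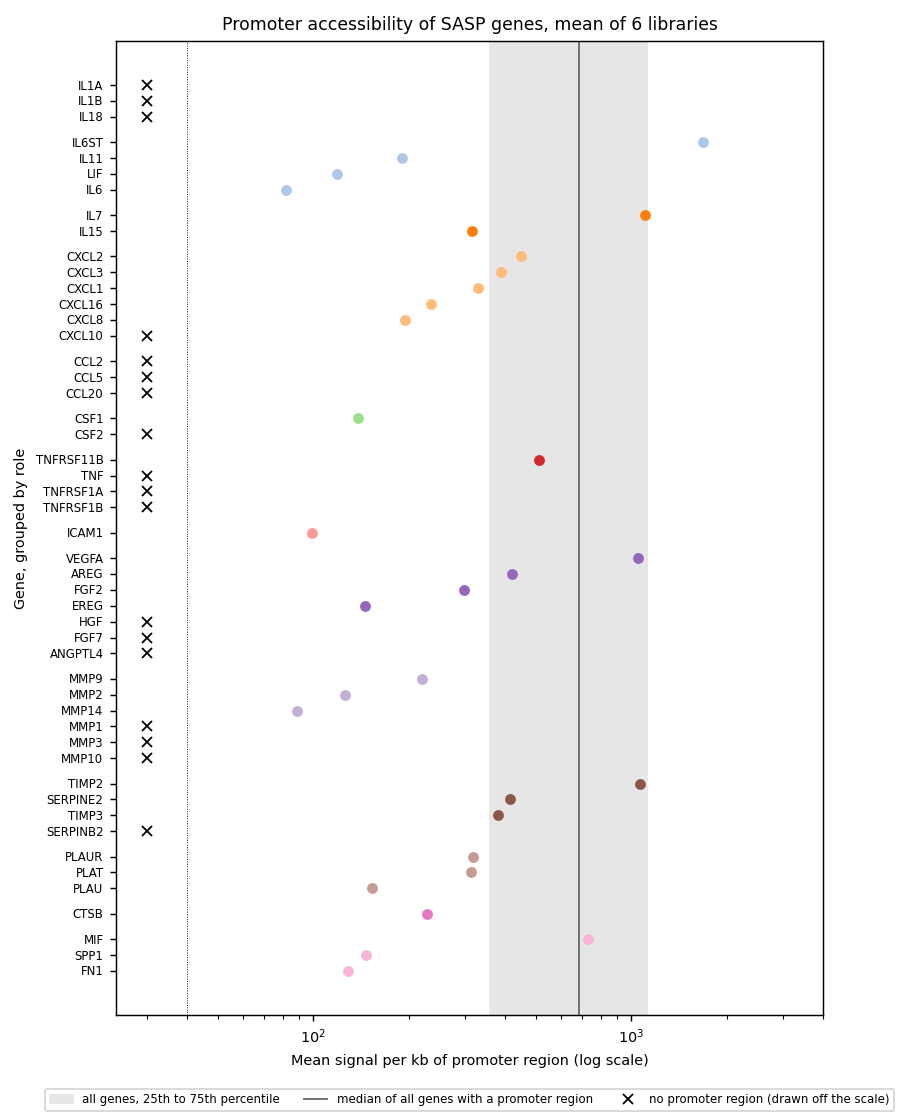
Mean signal per kb of the promoter region (horizontal, log scale, mean of 6 libraries) for each of the 49 SASP genes, grouped by role. The grey band spans the 25th to 75th percentile of all genes with a promoter region, the line is their median at 685.6 per kb, and crosses are the 18 genes with no promoter region. Points to the right of the line are IL6ST, IL7, TIMP2, VEGFA and MIF.

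The genes with neither kind of region were IL1A, IL1B, CXCL10, CCL2, CCL5, CCL20, TNF, TNFRSF1B, MMP1 and MMP3, among them several of the inflammatory ligands. For IL1A, which encodes the membrane-bound alarm cytokine interleukin-1 alpha, the nearest accessible region was 19.2 kb from a start site and was the promoter region of the neighbouring gene CKAP2L. IL1B, the secreted interleukin-1 beta, had its nearest region 51.1 kb away, with a mean signal of 39.2. Between and over these 2 genes, 62.9 kb of chromosome 2 held 0 accessible regions. IL18, the third interleukin-1 family gene, had no promoter region but 2 distal regions. The stronger of these lay 35.1 kb from the start site with a mean signal of 685 (921 per kb, percentile 95.1 of distal regions). A weaker one, in an intron of IL18 itself, had a mean signal of 26.8.

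None of the 3 CC chemokine genes had a region. CCL2 and CCL5, which attract monocytes and T cells, stood 55.0 kb and 49.4 kb from the nearest accessible region, and CCL20, a ligand of CCR6, stood 31.0 kb from it. TNF, an inflammatory cytokine made above all by macrophages, lies in a dense gene cluster of chromosome 6. Its nearest region, 4.99 kb away with a mean signal of 505, was a promoter region of LTB, so it did not count for TNF. CXCL10, a chemokine induced by interferon, had a region of mean signal 435 at 6.60 kb, which was nearer to the start site of another gene.

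In the IL-6 family the receptor gene was open and the ligand genes were weakly open. IL6ST encodes gp130, the signalling subunit that IL-6, IL-11 and LIF share. Its promoter region, chr5:55994590-55995636 (1047 bp), had a mean signal of 1757 and was the most open of all SASP genes at 1678 per kb, percentile 90.2. The promoter regions of the ligands were weak. IL11 reached 191 per kb (mean signal 132, chr19:55368674-55369365, percentile 12.6) and LIF 119 per kb (mean signal 41.4, chr22:30247080-30247427, percentile 6.84). IL6 itself was lowest of all 31 genes, with a mean signal of 87.2 over 1061 bp at chr7:22725582-22726642, which is 82.2 per kb and percentile 3.56. That region was centred 1.09 kb upstream of the start site of the canonical transcript, over the start of a longer annotated transcript. It covered 0 of the 300 bases from 250 before to 50 after the canonical start.

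Those 300 bases hold the part of the IL6 promoter known from other cells. The upstream sequence is shown because it carries recognised motifs and yet no region of the table covered it. It runs from position -200 to -54 relative to the RefSeq start site (GRCh38.p14), 5′ to 3′, and bases nearer the start are left out because a transcript annotates them as untranslated. Capitals mark a C/EBP match (TTGCNNAA, either strand), with its first base at -155, and a match to the NF-kB consensus at -73.
IL6, chr7:22727000-22727146, + strand: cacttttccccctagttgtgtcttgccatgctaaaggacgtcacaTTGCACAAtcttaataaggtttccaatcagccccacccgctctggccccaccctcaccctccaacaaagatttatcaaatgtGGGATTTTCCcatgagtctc

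IL7 and IL15, which support lymphocyte survival, both had a promoter region, but only that of IL7 stood above the median of all genes. The IL7 region, chr8:78804331-78805634, had a mean signal of 1443 (1107 per kb, percentile 74.5), second among the SASP genes. At chr4:141636040-141637308 the IL15 promoter region had a mean signal of 401 (316 per kb, percentile 21.6). A region in an intron of IL15, 36.1 kb upstream of the nearest annotated start site, was stronger, with a mean signal of 1052 (760 per kb).

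Of the 6 CXC chemokine genes, 5 had a promoter region and none of these reached the median of all genes. CXCL1, CXCL2 and CXCL3 encode neutrophil-attracting ligands of the receptor CXCR2, and they had regions that overlapped the start site, from 329 to 449 per kb. CXCL2 was highest at 449 per kb (mean signal 466, chr4:74098874-74099911, percentile 32.0). CXCL3 followed at 388 per kb (mean signal 544, chr4:74038205-74039607, percentile 27.4) and CXCL1 at 329 per kb (mean signal 335, chr4:73868910-73869926, percentile 22.8). A second promoter region was assigned to CXCL1 (mean signal 192) and to CXCL2 (mean signal 116). These genes are near copies of each other, so reads may have been shared or lost between them, and how reads with several placements were treated is not given in the sources used here. CXCL8, whose product IL-8 is the best known SASP chemokine, had a narrow region of 342 bp at chr4:73740443-73740784 with a mean signal of 66.3 (194 per kb, percentile 12.8). Only 176 of the 300 bases around its canonical start lay in that region. CXCL16 reached 235 per kb (mean signal 307), in a region that it shares with ZMYND15 on the opposite strand, so its level cannot be given to 1 of the 2 genes.

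The 200 bases upstream of the start sites of the 4 clustered genes are shown to set the shared promoter of the CXCL1, CXCL2 and CXCL3 genes beside that of CXCL8 (RefSeq, GRCh38.p14, coding strand, 5′ to 3′). Capitals mark, for the first 3 genes, a run that holds 2 overlapping NF-kB matches, beginning at -79 in CXCL1 and CXCL3 and at -78 in CXCL2, and in CXCL2 also a C/EBP match at -188. In CXCL8 they mark an AP-1 match (TGANTCA) at -137 and a TATA box (TATAAA) at -31. No full match to the NF-kB consensus, which as searched had to begin with GGG on either strand, was found in these bases of CXCL8. The stretch ggaatttcc inside the marked run of the first 3 genes is nonetheless present in CXCL8, flanked there by t on both sides. The missing match therefore says only that the full consensus letters are not in this window, and not that CXCL8 lacks such a site. The same limit holds for the other motifs. CXCL1, CXCL2 and CXCL3 each hold cataaa near the start, which differs from TATAAA in its first letter. CXCL8 holds ttgcaaat, which differs from the C/EBP letters TTGCNNAA in its last letter.
CXCL1, chr4:73869193-73869392, + strand: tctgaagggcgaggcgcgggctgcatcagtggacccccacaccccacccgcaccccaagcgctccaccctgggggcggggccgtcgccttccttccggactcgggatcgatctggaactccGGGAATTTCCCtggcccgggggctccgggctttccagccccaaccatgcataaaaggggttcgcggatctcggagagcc
CXCL2, chr4:74099196-74099395, - strand: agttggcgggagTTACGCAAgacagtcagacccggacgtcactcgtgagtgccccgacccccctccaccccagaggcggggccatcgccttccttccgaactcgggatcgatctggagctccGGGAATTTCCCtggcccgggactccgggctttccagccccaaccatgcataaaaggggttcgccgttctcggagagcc
CXCL3, chr4:74038690-74038889, - strand: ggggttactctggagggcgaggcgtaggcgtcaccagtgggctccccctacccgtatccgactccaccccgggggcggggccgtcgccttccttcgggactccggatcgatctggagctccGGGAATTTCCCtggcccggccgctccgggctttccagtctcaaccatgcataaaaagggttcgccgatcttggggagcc
CXCL8, chr4:73740369-73740568, + strand: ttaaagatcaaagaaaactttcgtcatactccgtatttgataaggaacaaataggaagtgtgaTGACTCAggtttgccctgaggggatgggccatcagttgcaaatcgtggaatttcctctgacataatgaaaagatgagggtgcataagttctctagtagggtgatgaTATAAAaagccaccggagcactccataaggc

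Over 300 bases, from 250 before to 50 after the start, CXCL1 and CXCL3 were identical at 68.7% of positions and CXCL1 and CXCL2 at 51.7%, in a comparison without gaps, whereas CXCL8 matched the other 3 at 23.3 to 26.0%. The run with the NF-kB matches begins at -79 in CXCL1 and CXCL3 but at -78 in CXCL2. Without gaps, that run and the bases upstream of it were compared out of step for CXCL2, so its values may understate the likeness. This run lay inside the promoter region in all 3 of the related genes.

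The chemokine genes lie with 2 growth factor genes, EREG and AREG, in 714 kb of chromosome 4 (73740519 to 74455005) that held 33 accessible regions, or 4.62 per 100 kb against 3.52 per 100 kb over all chromosomes. The strongest region in that span, with a mean signal of 1262, was the promoter region of MTHFD2L, which is no SASP gene. Per kb, the distal region of highest mean signal exceeded the promoter region for CXCL8, CXCL2, EREG and CXCL1, but not for CXCL3 and AREG. At 30.4 kb downstream of the CXCL8 start site lay a region with a mean signal of 878 (1086 per kb, percentile 96.4 of distal regions). CXCL2 had a distal region of mean signal 355 (982 per kb) at 24.1 kb.

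**Figure D2:**
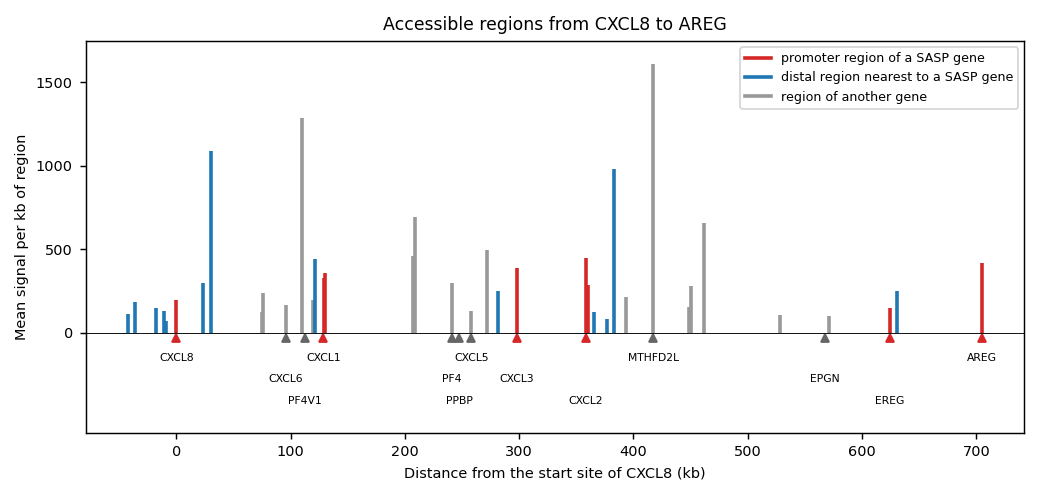
Accessible regions around the CXC chemokine genes of chromosome 4 by distance from the start site of CXCL8 (kb), with the height of each line giving the mean signal per kb of region. Triangles mark start sites, in red for SASP genes. The region 30.4 kb downstream of CXCL8 stands at 1086 per kb, above all promoter regions of SASP genes in the span.

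Of the colony-stimulating factors, CSF1, which maintains macrophages, had a weak promoter region of 138 per kb (mean signal 154, chr1:109910304-109911418, percentile 8.31) and a distal region of mean signal 742 (948 per kb) at 24.5 kb. CSF2, which encodes GM-CSF, had no promoter region and 1 distal region of mean signal 95.2. Among TNF and its receptors, TNFRSF11B was the exception. This gene encodes osteoprotegerin, a decoy receptor for RANKL, and its promoter region at chr8:118951496-118952405 had a mean signal of 466 (512 per kb, percentile 37.1), with 7 distal regions beside it. TNFRSF1A, the main TNF receptor of most cells, had no promoter region and 1 region in its own intron with a mean signal of 173. The adhesion molecule ICAM1 had a wide but shallow promoter region of 1756 bp at chr19:10269406-10271161, with a mean signal of 174 and 99.0 per kb, percentile 5.06.

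Of the 7 growth factor genes 4 had a promoter region, at percentiles of 9.02 to 71.9. VEGFA, the chief angiogenic factor and a gene that islets are known to use to keep their dense capillaries, had 5 promoter regions and 14 distal regions, the most of any SASP gene. Its leading promoter region, chr6:43769428-43770747, had a mean signal of 1384 (1049 per kb, percentile 71.9), and the other promoter regions had mean signals of 91.7 to 258. The distal regions of VEGFA took 5 of the 10 highest places in mean signal among those of all SASP genes. They included mean signals of 4029 at 59.7 kb, 2769 at 49.8 kb, 2584 at 32.6 kb, 1433 at 7.89 kb and 1047 at 73.9 kb, all downstream of the nearest VEGFA start site. The region at 59.7 kb, chr6:43833088-43835026, was intergenic and had the highest mean signal of any distal region of the SASP genes (2078 per kb), while per kb the region at 49.8 kb was highest, at 2681.

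AREG, a ligand of the EGF receptor, reached 420 per kb at the promoter (mean signal 410, chr4:74444830-74445806, percentile 29.9), and FGF2 297 per kb (mean signal 469, percentile 20.3). Another ligand of that receptor, EREG, reached 145 per kb (mean signal 100.2, percentile 9.02). HGF, FGF7 and ANGPTL4 had no promoter region. HGF, a factor released mainly by mesenchymal cells, had 4 distal regions of mean signal 11.3 to 375. FGF7 had 1 distal region of mean signal 245 at 71.5 kb, in an intron of FAM227B, and ANGPTL4 had 1 of mean signal 29.4.

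Of the 6 matrix metalloproteinase genes 3 had a promoter region, with a median of 125 per kb. No promoter region was found for MMP1, MMP3 or MMP10, which encode 1 interstitial collagenase and 2 stromelysins and lie side by side on chromosome 11. The 73.1 kb from MMP10 to MMP3 held 1 accessible region, chr11:102783450-102784303, 3.25 kb upstream of MMP10, with a mean signal of 249 (292 per kb). The gelatinase gene MMP9 had a narrow region of 227 bp in its first 2 kb, chr20:46010556-46010782, with a mean signal of 49.7 (219 per kb, percentile 14.7). Farther in, over a coding exon at 5.35 kb, a region of MMP9 had a mean signal of 591 (738 per kb). MMP2, the other gelatinase, reached 125 per kb at the promoter (mean signal 80.2, chr16:55478858-55479497, percentile 7.37) and had 5 distal regions of mean signal 78.7 to 220. MMP14, the membrane-anchored activator of pro-MMP2, reached 88.6 per kb (mean signal 30.9, chr14:22837262-22837610, percentile 4.16), and that region did not cover a start site. A distal region of MMP14 had a mean signal of 360 at 16.8 kb.

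Among the protease inhibitors, TIMP2 stood highest at 1061 per kb (mean signal 887, percentile 72.5). This region, chr17:78902856-78903691, lay in an intron 22.1 kb downstream of the canonical start site, over the start of a shorter transcript, and it was shared with CEP295NL. At the canonical start of TIMP2 itself, 0 of 300 bases lay in a region. SERPINE2, which encodes protease nexin-1, an inhibitor of thrombin and the plasminogen activators, reached 414 per kb (mean signal 679, chr2:224038386-224040026, percentile 29.5). TIMP3, the matrix-bound inhibitor, reached 380 per kb (mean signal 473, percentile 26.8). The gene lies inside an intron of SYN3, and the distal region second in mean signal among the SASP genes, though not per kb, chr22:32880803-32882576, with a mean signal of 3531 (1990 per kb), lay in a SYN3 intron 80.0 kb from the TIMP3 start site. The other 6 distal regions of TIMP3 had mean signals of 16.6 to 83.9. SERPINB2, the second inhibitor of plasminogen activators in the list, had no promoter region and 2 distal regions of mean signal 57.6 and 58.5.

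The plasminogen activator genes PLAU and PLAT and the urokinase receptor gene PLAUR each had a promoter region in the lowest 25% of all genes. PLAUR reached 318 per kb (mean signal 264, chr19:43668238-43669067, percentile 21.9), PLAT 313 per kb (mean signal 147, chr8:42195139-42195608, percentile 21.4) and PLAU 153 per kb (mean signal 178, percentile 9.69). The PLAT region was centred 12.2 kb inside the canonical gene and that of PLAUR 1.52 kb inside, both near alternative start sites. CTSB, a lysosomal cysteine protease found in nearly all cells, reached 228 per kb (mean signal 216, chr8:11867242-11868188, percentile 15.3).

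The last group held matrix and other secreted proteins. MIF, a cytokine that beta cells are known to make, had a promoter region of mean signal 1224 (730 per kb, chr22:23893928-23895604, percentile 53.1) and a stronger distal region of mean signal 1725 (2475 per kb, percentile 99.7 of distal regions) at 19.5 kb. FN1, fibronectin, reached only 129 per kb at the promoter (mean signal 180, percentile 7.69), against a distal region of mean signal 388 (589 per kb) 93.5 kb upstream. SPP1, osteopontin, had a region of 147 per kb (mean signal 45.9, chr4:87973546-87973858, percentile 9.12) that lay 2.01 kb upstream of the canonical start and covered no start site.

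For the 27 SASP genes with both kinds of region, the distal region of highest mean signal was set against the promoter region. It exceeded the promoter region per kb in 20 of 27 genes, 74.1%, against a background of 37.1% of the 11013 genes with both. On mean signal not divided by width, where wide promoter regions gain, it did so in 12 of 27, 44.4%, against a background of 28.1%. For FGF2, for example, the distal region of 174 bp had a mean signal of 65.8 and the promoter region of 1580 bp one of 469. Per kb the excess was largest for CSF1, at 6.87 times the promoter value per kb, followed by CXCL8 at 5.60, TIMP3 at 5.24, MMP14 at 4.68 and FN1 at 4.57. The promoter was the higher per kb for TIMP2, IL7, IL6ST, AREG, PLAUR, CXCL3 and TNFRSF11B. Over all 102 distal regions of the SASP genes the median was 220 per kb, against 187 per kb for all assigned distal regions, and 15 of the 102 stood in the top 10% of all distal regions. Assignment to the nearest start site says where a region lies, not which gene it acts on.

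**Figure D3:**
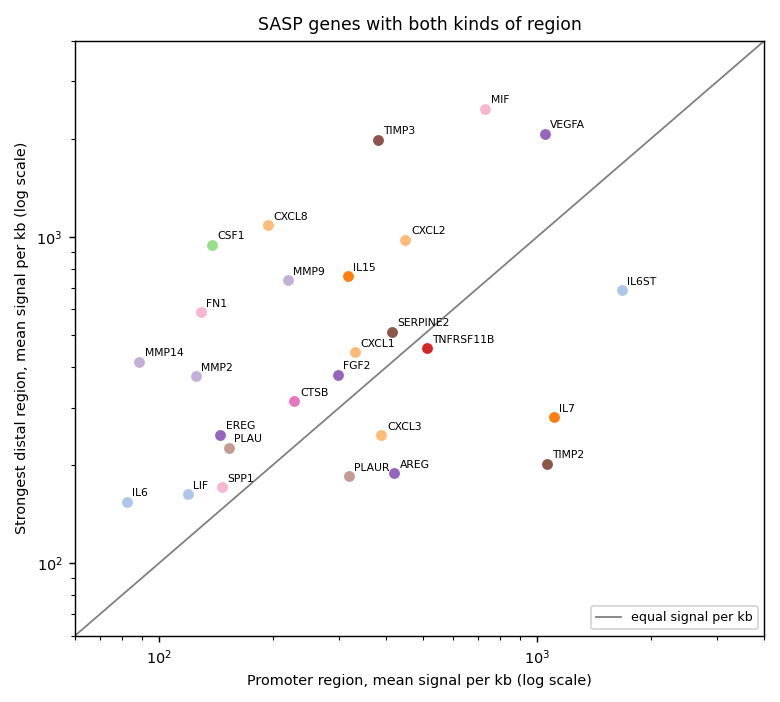
Mean signal per kb of the distal region of highest mean signal (vertical) against that of the promoter region (horizontal), both on log scales, for the 27 SASP genes with both kinds of region. The line marks equal values, and 20 genes lie above it, with TIMP3, CXCL8 and CSF1 far above and TIMP2, IL7 and IL6ST farthest below.

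Most distal regions were intergenic (68 of 102), 29 lay in introns, 24 of them in an intron of the SASP gene itself, 3 in coding exons and 2 in untranslated exons. Their median distance to the start site was 23528 bp, close to the 23983 bp of all assigned distal regions, and 27 lay within 10 kb.

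Motifs were counted on both strands in the 300 bases centred on the middle of each region. Where a region was narrower than the window, the window reached past its edges, so a match counted for it may lie outside it. The narrowest distal region of a SASP gene was 172 bp wide. The NF-kB consensus was found in 15 of 102 distal regions of SASP genes, 14.7%, against a background of 7.32% of all assigned distal regions. AP-1 (TGANTCA) was found in 18 of 102, 17.6%, against a background of 11.3%, and C/EBP (TTGCNNAA) in 20 of 102, 19.6%, against a background of 14.9%. At promoter regions NF-kB matched in 5 of 31 genes, 16.1%, against a background of 15.2%, and these were CXCL1, CXCL2, CXCL3, IL15 and IL6ST. AP-1 matched in 1 of 31 (LIF), against a background of 3.18%, and C/EBP in 1 of 31 (CXCL2), against a background of 5.65%. The counts moved with the window. In the middle 200 bases NF-kB matched at 1 of 31 promoter regions (3.23%, against a background of 10.3%) and AP-1 at 0 of 31 (background 2.08%). Distal regions then held NF-kB in 12 of 102 (11.8%, background 4.93%), AP-1 in 11 (10.8%, background 7.87%) and C/EBP in 12 (11.8%, background 10.2%). In the RefSeq promoter sequences of 19 SASP genes with a promoter region and an entry, NF-kB matched in 5 (26.3%, background 13.0%), AP-1 in 3 (15.8%, background 4.39%) and C/EBP in 3 (15.8%, background 7.24%). Distal regions of VEGFA held NF-kB matches in 3 of 14 cases, and regions of 1 gene are not independent of each other. The same holds for CXCL1, CXCL2 and CXCL3, near copies that share the matching run. They supply 3 of the 5 NF-kB matches at promoter regions and 3 of the 5 in RefSeq promoter sequences.

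Windows with an AP-1, NF-kB or C/EBP match were taken in order of mean signal, 1 per gene and only from genes with a promoter entry in RefSeq, and 3 of the 4 distal ones among the first 8 are shown (the other is not shown here) as their middle 300 bases (hg38, 5′ to 3′, capitals mark the match). They show that the match to AP-1 near MIF, SERPINE2 and MMP10 stands in otherwise different sequence. A match is a description of letters and not a binding site.
MIF, chr22:23913775-23914074, + strand: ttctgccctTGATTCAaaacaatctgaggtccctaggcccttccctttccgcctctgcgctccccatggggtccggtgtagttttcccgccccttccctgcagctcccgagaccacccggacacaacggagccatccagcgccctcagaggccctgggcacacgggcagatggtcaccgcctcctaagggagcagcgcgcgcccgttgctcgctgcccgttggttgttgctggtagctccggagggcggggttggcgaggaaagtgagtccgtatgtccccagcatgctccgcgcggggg
SERPINE2, chr2:224008960-224009259, + strand: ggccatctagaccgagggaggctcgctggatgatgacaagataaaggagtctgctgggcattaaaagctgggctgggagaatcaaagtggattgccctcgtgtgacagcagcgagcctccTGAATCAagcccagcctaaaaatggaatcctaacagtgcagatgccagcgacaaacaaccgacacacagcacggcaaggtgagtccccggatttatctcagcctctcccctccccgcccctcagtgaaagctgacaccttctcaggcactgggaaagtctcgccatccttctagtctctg
MMP10, chr11:102783727-102784026, + strand: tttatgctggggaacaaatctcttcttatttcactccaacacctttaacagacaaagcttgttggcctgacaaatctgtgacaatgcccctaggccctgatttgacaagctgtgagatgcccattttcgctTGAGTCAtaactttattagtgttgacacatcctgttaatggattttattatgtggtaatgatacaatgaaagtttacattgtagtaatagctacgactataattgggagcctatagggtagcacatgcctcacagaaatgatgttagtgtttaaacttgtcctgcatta

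Genes whose promoters are rich in CpG dinucleotides are open in most cell types, and the SASP genes were set against that class. Counted from 250 bases before to 50 after the canonical start, 20 of 49 SASP genes were CpG-rich (40.8%), against 65.8% of all genes. Among the CpG-rich SASP genes 18 of 20 had a promoter region (90.0%, against 95.7% of all CpG-rich genes), and among the CpG-poor ones 13 of 29 (44.8%, against 46.3%). The levels of the open promoters were lower in both classes. The median percentile of the CpG-rich SASP genes was 27.1, against 54.2 for all CpG-rich genes, and that of the CpG-poor ones was 9.12, against 29.7. TNFRSF1B and ANGPTL4 were the CpG-rich SASP genes with no promoter region. The class was read at the canonical start, whereas a promoter region could lie at any annotated start of the gene. Those of TIMP2 and PLAT, for example, were centred 22.1 kb and 12.2 kb from the canonical start. The shares by class are therefore not shares of genes open at the start that was classed. This class was added after the values were seen and was not tested.

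**Figure D4:**
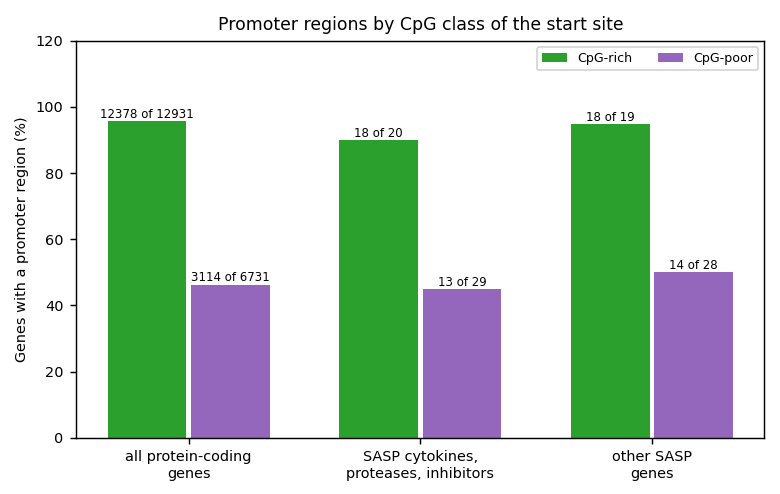
Share of genes with a promoter region (%), by CpG class of the canonical start site, for all protein-coding genes, the SASP cytokines, proteases and inhibitors, and the other SASP genes. Numbers above the bars are genes with a promoter region of genes in the class, 18 of 20 and 13 of 29 for the SASP cytokines, proteases and inhibitors.

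Requiring a region in those 300 bases around the canonical start, rather than within 2 kb of any start, left 22 of 49 SASP genes, 44.9%, against a background of 69.5% of all genes. Those lost were IL6, IL11, LIF, MMP9, MMP14, TIMP2, PLAUR, PLAT and SPP1.

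The study's SASP signature holds 47 further genes. A promoter region was found for 32 of them (68.1%, against a background of 78.8% of all protein-coding genes), with a median percentile of 27.2. At or above the median of all genes stood 5 of 32 (15.6%, background 50.0%), and 8 of 47 had neither kind of region (17.0%, background 10.0%). The highest were GMFG at 1467 per kb, LMNB1 at 1326 per kb and ICAM3 at 989 per kb. Among those with neither were AXL, PPBP and 5 CC chemokine genes (CCL3, CCL7, CCL11, CCL13 and CCL25).

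**Figure D5:**
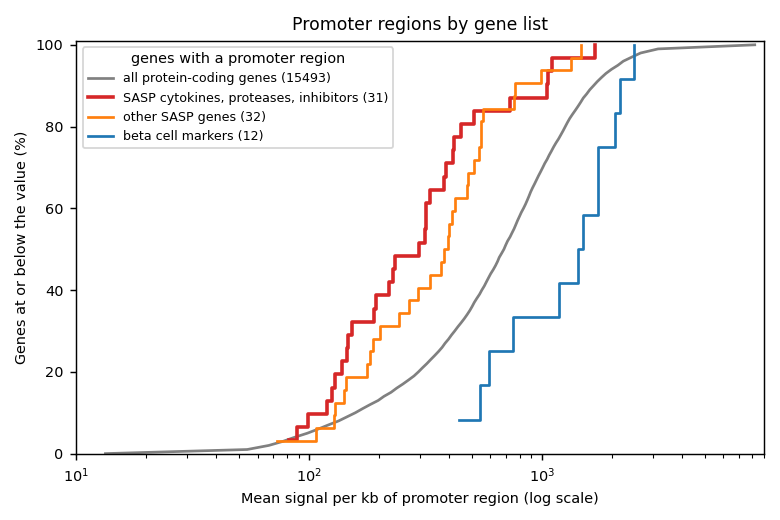
Cumulative share of genes (%, vertical) by mean signal per kb of the promoter region (horizontal, log scale), for genes with a promoter region. The 31 SASP cytokines, proteases and inhibitors (median 297.0 per kb) and the other 32 SASP genes lie to the left of all 15493 genes (median 685.6 per kb), and the 12 beta cell markers to the right.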

How the data were processed

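ATAC-seq libraries of EndoC-βH3 cells, 3 senescent and 3 non-senescent by the labels, were used. By the study's methods, the authors used Trim Galore for trimming and Bowtie2 for alignment to hg38, dropped mitochondrial and duplicate reads, corrected read ends for the transposase offset, called peaks with MACS2 at q under 0.01 and counted reads under the union of peaks. The deposited signal is the mean over all libraries of counts scaled by DESeq2, made by the authors. Another 5 columns hold the authors' comparison of the groups (fold change, its error, statistic, p-values) and were not used, and the table has no values per library. The study's methods give only a range of read numbers over samples, so the depth of each library is not known here, and the planned count test and its replicate block were not run.

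Start positions were converted to 1-based. Start sites came from GENCODE 44, and regions were assigned with pandas 2.3.3 and numpy 2.4.6 in Python 3.11.15, checked on simulated data. Signal per kb is the mean signal over region width. CpG-rich means an observed over expected CpG ratio of at least 0.6 and a GC content of at least 50%. Promoter sequences came from RefSeq, in which 32 of 49 genes matched. Sequences were left out for genes without a match, on chromosome 8 and over more than 30 untranslated bases, which removed the match of IL6ST. A few items are not reported here.

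Described in full were the 10 highest and 5 lowest genes in promoter signal per kb, the first 2 of each role and the 10 strongest distal regions. The genes, lists and rules were chosen with earlier results of these data known. Alternatives varied the promoter window, distal limit, signal minimum, start sites and motif window.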

Additional observations from a re-analysis of the deposited data

How the results depend on the processing

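Of 42 values recomputed under an alternative, 34 stayed within 1.5 times the reported value. The distal regions assigned to SASP genes fell from 102 to 51 when the nearest start site was taken among genes of every type, since start sites of noncoding genes then claimed the others. In motif windows of 200 bases, AP-1 matched in 11 distal regions of SASP genes in place of 18, C/EBP in 12 in place of 20, and AP-1 matched at 0 promoter regions in place of 1, and NF-kB matched at 1 promoter region in place of 5. In the RefSeq promoter sequences AP-1 and C/EBP each matched in 3 genes, of 19 with a promoter region and an entry, in place of 1. The distal region exceeded the promoter region in 12 of 27 genes, in place of 20, when mean signal was not divided by width. This comparison and those of C/EBP were added after seeing the data. Promoter presence ranged from 22 to 31 genes over the alternatives, with 22 for the window around the canonical start, which was chosen after seeing the data, and the count of genes at or above the median stayed at 4 or 5. No paired analysis was possible because no library has values of its own in the file used here, although both groups carry the numbers 1 to 3. For the same reason no library could be left out in turn, and no difference between senescent and non-senescent cells was measured here.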
